A study of Mus musculus with 12 samples.

Results

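The liver transcription factors Hnf4a, Foxa1, Foxa2, Foxa3, Cebpa, Cebpb, Onecut1, Prox1 and Nr5a2 were followed in livers of healthy mice and of mice with diet- and diabetes-driven steatohepatitis. These 9 genes were chosen by name, as regulators that define the hepatocyte, and matched by symbol to 9 of the 47729 gene identifiers counted. All 9 had enough counts to be tested, among 16823 genes that did. RNA-seq was carried out on whole liver from male C57BL/6 mice, 4 in each of 3 groups, all taken at 9 weeks of age. The healthy group, labelled WT and Vehicle, was given neither streptozotocin nor high fat diet, and its dosing schedule is not given in the sample labels. Mice of the STAM-vehicle group and of the STAM-I-BET151 group received streptozotocin on day 2 after birth, which damages the insulin-producing beta cells, and a high fat diet from week 4. From week 6 to week 9 they were dosed orally once a day with vehicle or with I-BET151 at 10 mg/kg. I-BET151 is a small molecule that blocks the bromodomains of the BET proteins, readers of acetylated histones. The STAM model is an induced one in a single strain and sex, and streptozotocin and high fat diet were always given together, so their parts in any difference cannot be told apart. Both STAM groups carry both treatments.

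HNF4A is a nuclear receptor that binds near a large share of the genes used by the hepatocyte. FOXA1, FOXA2 and FOXA3 open chromatin at liver enhancers, C/EBP alpha and C/EBP beta drive metabolic and acute-phase genes, and ONECUT1 acts upstream of several of these in the developing liver and bile duct. NR5A2 activates bile acid and cholesterol genes, and PROX1, a homeobox protein also found in lymphatic endothelium, can act as a corepressor of NR5A2 and HNF4A. The factors bind each other's genes, and much of their action runs through acetylated enhancers that BET proteins read.

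Between 34711229 and 53365596 reads per mouse were assigned to genes. Levels are given as CPM, the share of reads of a gene scaled between mice by TMM, which lines up the bulk of genes rather than the totals. STAM-I-BET151 mouse 3 stood apart from the other 11. Its scaling factor was 1.61 where the others lay between 0.770 and 1.11, its 10 highest genes held 7.95% of its counts, and its summed hepatocyte secreted and enzyme genes came to 34626 CPM, against 95801 or more in each of the others. Relative to the other 3 I-BET151 mice, the median gene differed by 0.05 on the log2 scale in that mouse and the 1000 highest genes by -0.81. Of the factors, Hnf4a differed there by -1.06, Onecut1 by -0.93, Foxa3 by -0.72, Cebpa by -0.72, Cebpb by -0.71 and Nr5a2 by -0.69, whereas Foxa1 (0.08), Foxa2 (-0.08) and Prox1 (-0.06) were close to the other 3. The study's methods left out a treated mouse, not named there, because few genes were counted, whereas every mouse was kept in the main values here. Without mouse 3, calls over all genes went from 1195 to 3779 in vehicle against healthy, from 59 to 403 in treated against vehicle and from 2546 to 3464 in treated against healthy livers.

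The 9 factors spanned a wide range of levels. Levels of different genes were compared as TPM, which divide counts by the exonic length of each gene and then scale each mouse to a fixed sum. In healthy liver Hnf4a was the highest at 415 ± 33.7 TPM (SD, n = 4), followed by Cebpa at 198 ± 29.6 TPM and Foxa3 at 63.97 ± 8.28 TPM. Ranges of these 3 did not overlap. Cebpb (54.7 ± 12.4 TPM), Prox1 (38.2 ± 7.55 TPM), Foxa2 (29.6 ± 9.63 TPM) and Nr5a2 (22.3 ± 2.57 TPM) followed Foxa3 in that order, each overlapping its neighbour. Foxa1 came next at 11.7 ± 1.88 TPM and Onecut1 last at 1.98 ± 1.42 TPM, and neither overlapped the gene above it. Among all 47729 genes, Hnf4a ranked 229 and Onecut1 10663 in healthy liver.

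**Figure D1:**
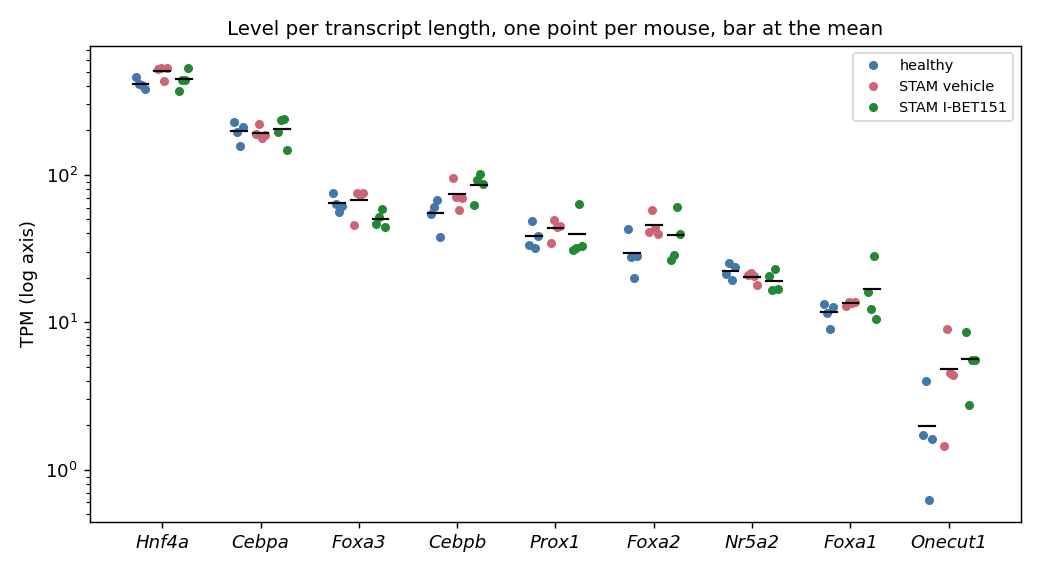
Level per transcript length (TPM, log axis) of the 9 factors in healthy, STAM-vehicle and STAM-I-BET151 livers, with a point per mouse and a bar at the mean of 4. Hnf4a lies highest and Onecut1 lowest in all 3 groups, and the order of Foxa3 and Cebpb differs between healthy and STAM livers.

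The order was largely kept in diseased liver. Hnf4a and Cebpa held the first places in all 3 groups and Nr5a2, Foxa1 and Onecut1 the last 3. Cebpb stood above Foxa3 in the mean of STAM-vehicle livers (73.5 ± 15.9 against 66.96 ± 14.4 TPM), where the ranges overlapped and Cebpb was the higher of the pair in 1 of 4 mice. In STAM-I-BET151 livers Cebpb was at 85.7 ± 16.2 TPM and Foxa3 at 50.3 ± 6.61 TPM, and the 4 mice did not overlap, with Cebpb higher in each. In healthy livers Foxa3 was the higher of the pair in 3 of 4 mice. Foxa2 and Prox1 also changed places, with Foxa2 above Prox1 in the mean of STAM-vehicle livers alone (45.4 against 43.4 TPM). Their ranges overlapped in every group.

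The disease itself was asked about first, by comparing STAM-vehicle with healthy livers. By edgeR's quasi-likelihood test, 0 of 9 factors had an adjusted p of at most 0.05, where 7.1% of all tested genes did. The count was also 0 with DESeq2 (10.2% of genes called) and 2 with limma-voom, namely Foxa2 higher and Nr5a2 lower, where 33.7% of genes were called. At an unadjusted p under 0.05 there was 1 factor, Nr5a2, against 22.3% of all tested genes. In CPM, mean levels were lower in STAM-vehicle livers for 6 of 9 factors. The median log2 fold change of the 9 was -0.09 beside 0.01 for all tested genes. The direction depended on the scale. In TPM, only the means of Cebpa (193.1 against 197.8) and Nr5a2 (20.2 against 22.3) were lower in STAM-vehicle than in healthy livers, and those of the other factors were higher. With all 4 STAM-vehicle mice below all 4 healthy mice in CPM, Nr5a2 and Cebpa were the 2 factors whose groups did not overlap, a pattern found in the same direction in 12.2% of tested genes. When the fit held only the 8 mice of these groups, both passed (adjusted p = 0.00908 for Nr5a2 and 0.0308 for Cebpa, edgeR), where 23.9% of genes did.

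Treatment was asked about next, by comparing STAM-I-BET151 with STAM-vehicle livers. No factor passed the threshold used for this comparison, an adjusted p of 0.1, which 0.351% of tested genes passed in edgeR. DESeq2 also gave 0 (1.48% of genes called), as did edgeR without STAM-I-BET151 mouse 3 (2.38%), and limma-voom with sample weights gave 1, Foxa3 (adjusted p = 0.0849), where 7.16% of genes passed. At an unadjusted p under 0.05 there were 2, Foxa2 and Foxa3, both lower with treatment, against 8.68% of all tested genes. All 9 factors overlapped between these groups in CPM, where 2.63% of genes were lower without overlap.

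Set against healthy livers, STAM-I-BET151 livers had less Nr5a2 and less Foxa3. These were the 2 of 9 factors past an adjusted p of 0.05 (edgeR), where 15.1% of all tested genes passed and 5.25% passed as lower. Both were also the factors whose groups did not overlap in CPM, as was found for 8.85% of tested genes in that direction. At an unadjusted p under 0.05 there were 3, with Prox1 added, against 32.6% of all tested genes. DESeq2 and limma-voom called the same 3, Prox1 in DESeq2 at a log2 change of -0.49 (adjusted p = 0.0345), with 17.8% and 29% of genes called. The 3 comparisons share groups, so their values are not independent of each other.

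**Figure D2:**
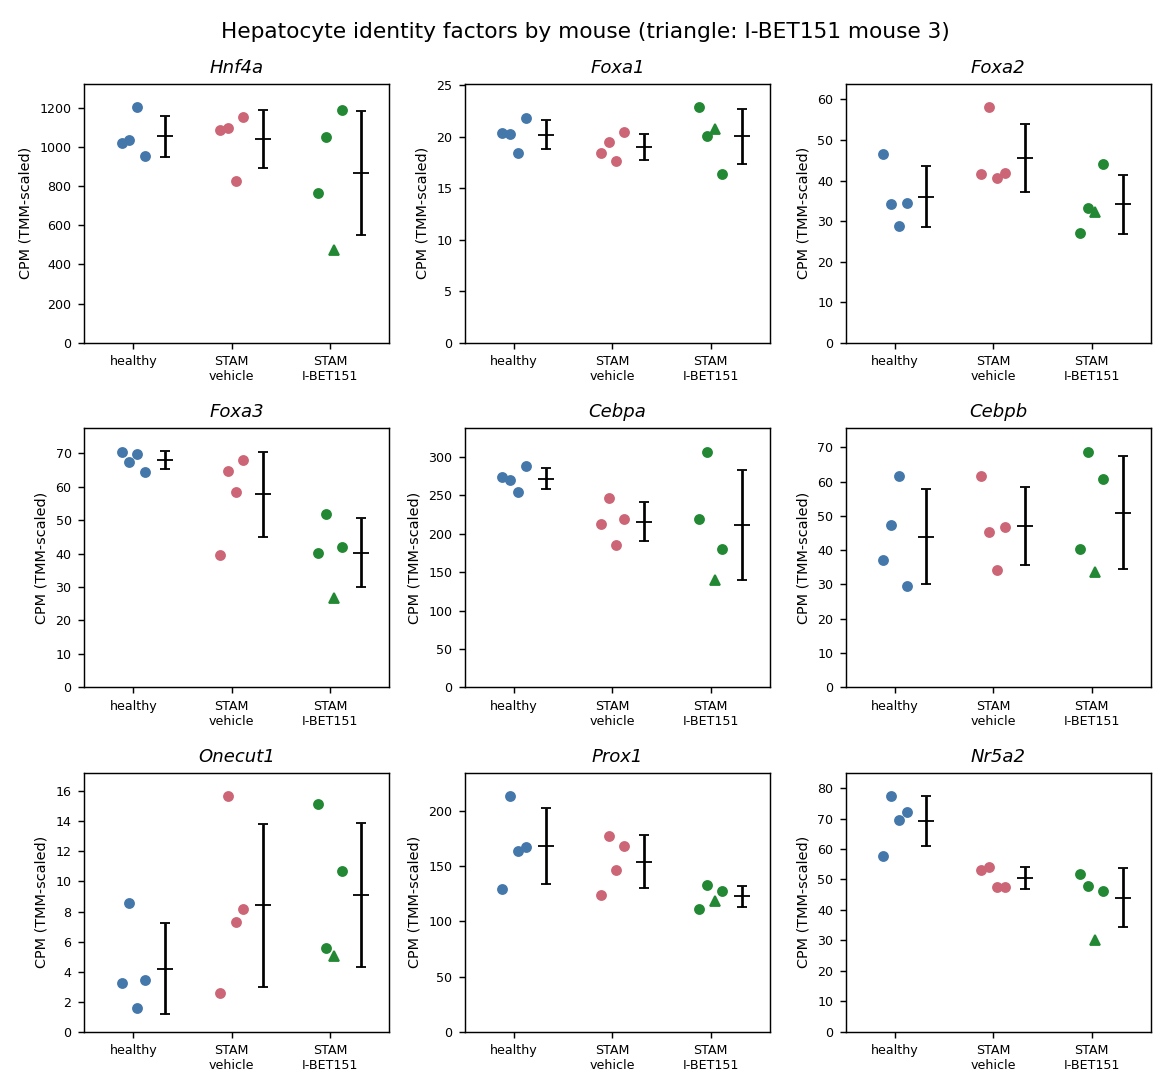
CPM (scaled by TMM) of each factor in every mouse, with the mean ± SD of 4 mice beside each group and STAM-I-BET151 mouse 3 drawn as a triangle. Nr5a2 and Foxa3 are lower in all 4 STAM-I-BET151 mice than in any healthy mouse, and Hnf4a, Foxa1, Foxa2, Cebpb, Onecut1 and Prox1 overlap across the groups.

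Promoter sequences are shown for Nr5a2, Foxa3 and Cebpa, the factors whose STAM mice all lay below healthy mice in CPM in at least 1 comparison, so that their starts can be compared. They are the 250 bases before the RefSeq transcription start on GRCm38.p6, written 5′ to 3′ along the gene, for windows with no annotated exonic base of the gene itself. Exons of other genes were not looked for in these windows. Capitals mark matches to motifs searched on both strands. For HNF4 the letters were CAAAGTCCA, for FOXA proteins TGTTTAC, for C/EBP proteins TTGCNNAA, for ONECUT1 ATCGATT and for NR5A2 CAAGGTCA. Core promoter motifs were the TATA box with the letters TATAAA, the CCAAT box and the GC box with the letters GGGCGG, and none of the 8 motifs is contained in another. The sequences are the upstream Nr5a2 start at chr1:136960449-136960698 (minus strand), the downstream Nr5a2 start at chr1:136953631-136953880 (minus strand), Foxa3 at chr7:19023540-19023789 (minus strand) and Cebpa at chr7:35119043-35119292 (plus strand).
Nr5a2 upstream start: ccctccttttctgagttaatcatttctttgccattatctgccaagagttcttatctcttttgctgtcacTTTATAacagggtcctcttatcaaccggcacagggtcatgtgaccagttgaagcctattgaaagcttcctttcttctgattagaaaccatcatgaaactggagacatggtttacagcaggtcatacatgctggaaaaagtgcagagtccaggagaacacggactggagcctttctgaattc
Nr5a2 downstream start: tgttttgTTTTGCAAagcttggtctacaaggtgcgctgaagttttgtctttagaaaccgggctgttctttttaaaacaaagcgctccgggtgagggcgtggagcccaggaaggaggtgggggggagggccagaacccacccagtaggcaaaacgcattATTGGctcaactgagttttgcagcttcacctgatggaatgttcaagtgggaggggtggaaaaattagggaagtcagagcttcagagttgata
Foxa3: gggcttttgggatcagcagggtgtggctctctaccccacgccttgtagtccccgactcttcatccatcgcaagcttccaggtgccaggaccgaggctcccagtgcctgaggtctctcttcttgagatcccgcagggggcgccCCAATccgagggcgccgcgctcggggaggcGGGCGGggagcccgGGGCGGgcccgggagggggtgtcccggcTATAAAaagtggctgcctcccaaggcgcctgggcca
Cebpa: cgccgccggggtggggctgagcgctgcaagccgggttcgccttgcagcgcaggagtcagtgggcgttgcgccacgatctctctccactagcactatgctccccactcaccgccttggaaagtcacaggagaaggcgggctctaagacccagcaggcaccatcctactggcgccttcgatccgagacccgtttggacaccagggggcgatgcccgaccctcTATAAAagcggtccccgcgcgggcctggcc

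The 2 starts of Nr5a2 and that of Foxa3 differed in composition. The upstream Nr5a2 window had a GC content of 43.2% and 2 CpG dinucleotides, the downstream Nr5a2 window 49.6% and 6, Foxa3 68.8% and 18, and Cebpa 66.4% and 22, beside a median of 52.4% and 6 over 32851 windows of RefSeq genes. The upstream Nr5a2 window held a TATA match 181 bases before the start, a motif in 12.4% of all windows. The downstream window held a C/EBP match at 243 bases (9.56% of windows) and a CCAAT box at 92 bases (33.8%). Foxa3 held a TATA match at 36 bases, a CCAAT box at 108 bases and GC boxes at 78 and 64 bases (32.7% of windows), and Cebpa a TATA match at 30 bases. The letters searched for HNF4, FOXA, ONECUT and NR5A2 were not in these 4 windows. A match is a run of letters and was not tested as a binding site.

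Reads were counted over the exons of each gene, and gene positions are those of GENCODE M21 on GRCm38. Nr5a2 (ENSMUSG00000026398, chr1:136842571-136960448, minus strand), the bile acid and cholesterol regulator, had the lowest adjusted p of the 9 in both comparisons with healthy livers. Its CPM in mice 1 to 4 was 57.7, 77.3, 69.4 and 72.1 in healthy livers, 52.9, 54.1, 47.6 and 47.4 in STAM-vehicle livers and 51.7, 47.98, 30.05 and 46.3 in STAM-I-BET151 livers. Every STAM mouse of either group lay below the lowest healthy mouse, and the STAM groups overlapped each other. STAM-I-BET151 livers had 36.3% less than healthy livers (log2 change -0.65 ± 0.16, adjusted p = 0.0163, edgeR, with log2 fold changes given ± standard error here and below). The same test gave log2 change -0.45 ± 0.16, adjusted p = 0.105 for STAM-vehicle livers. Treated against vehicle gave log2 change -0.20 ± 0.16, adjusted p = 0.796, and -0.042 without mouse 3. Without STAM-I-BET151 mouse 3, the lowest of the 12, Nr5a2 passed in both comparisons with healthy livers, at -0.48 (adjusted p = 0.00547) for vehicle, where 22.3% of genes passed, and -0.52 (adjusted p = 0.00549) for I-BET151, where 20.4% did. With all 4 treated mice kept, the call against healthy livers was lost without healthy mouse 2 or 4 (adjusted p up to 0.0608).

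The scale matters for this gene. As a share of all transcripts, Nr5a2 stood at 21.3, 25.1, 19.2 and 23.6 TPM in healthy mice 1 to 4, 20.9, 21.5, 20.5 and 17.9 in STAM-vehicle and 20.5, 16.5, 22.8 and 16.9 in STAM-I-BET151 mice, and the groups overlapped. With counts scaled to library totals alone, the change between I-BET151 and healthy livers was -0.32 and missed the threshold (adjusted p = 0.0655, edgeR). On that scale the median of all genes stood at 0.46, 0.40 above its place under TMM, so Nr5a2 was below the median gene on either scale. Sequencing lanes, as the deposited file names give them, held both a healthy and an I-BET151 mouse in lanes 2 and 5. Nr5a2 was at 57.7 CPM in the healthy and 46.3 CPM in the treated mouse of lane 2, and at 72.1 and 48.0 CPM in lane 5. With lane as a term, which leaves 4 residual degrees of freedom for 6 lanes, the change was -0.49 and was not called (adjusted p = 0.352).

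Foxa3 (ENSMUSG00000040891, chr7:19013284-19023538, minus strand), the FOXA factor that rises late in liver development and the most abundant of the family here, had the largest fall that passed. Its CPM was 70.5, 67.5, 69.7 and 64.5 in healthy mice 1 to 4, 39.6, 64.9, 58.4 and 68.1 in STAM-vehicle mice and 40.1, 51.9, 26.9 and 42.03 in STAM-I-BET151 mice. Healthy mice were close to each other, STAM-vehicle mouse 1 lay far below the other 3 of its group, and all treated mice lay below all healthy mice. STAM-I-BET151 livers had 40.9% less Foxa3 than healthy livers (log2 change -0.76 ± 0.20, adjusted p = 0.0203, edgeR). Against STAM-vehicle livers the values were log2 change -0.52 ± 0.19, adjusted p = 0.431, and STAM-vehicle against healthy gave log2 change -0.24 ± 0.19, adjusted p = 0.512, and -0.096 without STAM-vehicle mouse 1. Without STAM-I-BET151 mouse 3 the fall from healthy was -0.62 (adjusted p = 0.0171). The call was lost without healthy mouse 2, 3 or 4 (adjusted p up to 0.0564). Scaled to library totals alone the fall was -0.44 (adjusted p = 0.0631), and in lanes 2 and 5 the healthy mice had 70.5 and 64.5 CPM against 42.0 and 51.9 CPM in the treated mice. With lane as a term it was -0.52 (adjusted p = 0.445). As a share of all transcripts Foxa3 ranged over 55.9 to 75.5 TPM in healthy and 44.4 to 59.1 TPM in treated mice, which overlapped.

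A ratio within a mouse does not depend on the scaling between mice. The count of Foxa3 over that of Hnf4a was 0.0691, 0.0651, 0.0580 and 0.0678 in healthy mice, 0.0365, 0.0593, 0.0710 and 0.0591 in STAM-vehicle mice and 0.0526, 0.0495, 0.0570 and 0.0355 in STAM-I-BET151 mice. All treated mice lay below all healthy mice in this ratio, while the same ratio for Nr5a2 overlapped (0.0565 to 0.0759 in healthy and 0.0391 to 0.0678 in treated livers). Foxa3 made up 57.3 to 65.9% of the summed FOXA TPM in healthy mice, 45.7 to 58.4% in STAM-vehicle and 39.98 to 55.97% in STAM-I-BET151 mice, again without overlap between treated and healthy. These ratios are descriptions and were not tested.

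**Figure D3:**
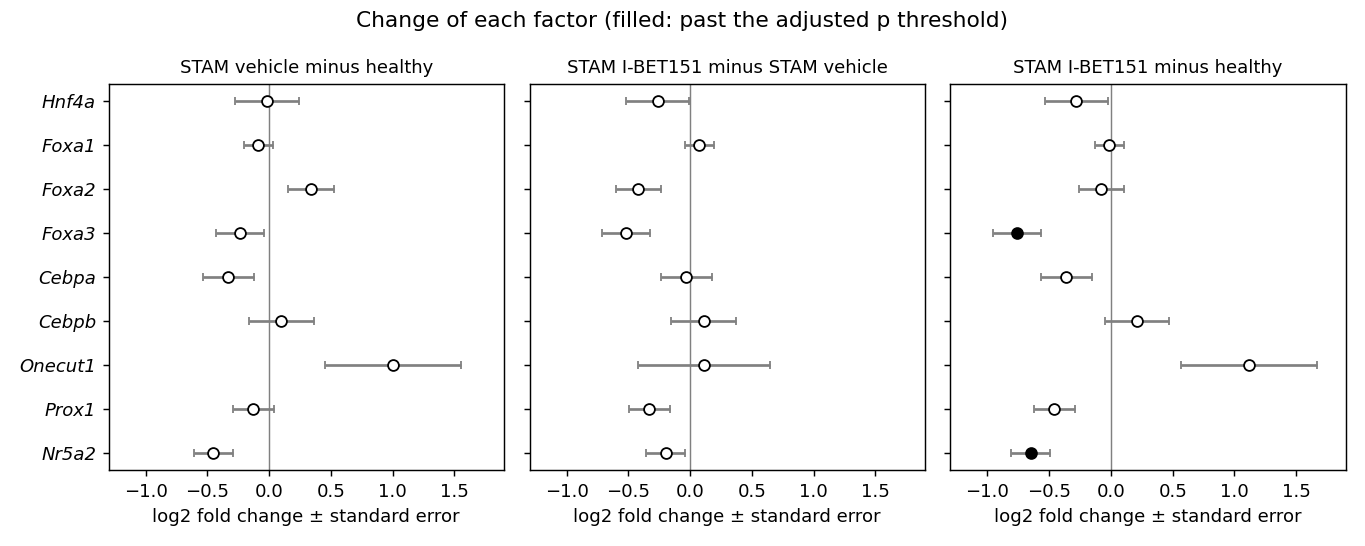
Log2 fold change ± standard error (edgeR, 12 mice in 1 fit) of each factor in the 3 comparisons, filled where the adjusted p threshold was passed. Filled points appear for Foxa3 (-0.76) and Nr5a2 (-0.65) in STAM-I-BET151 minus healthy, and the widest errors belong to Onecut1.

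Neither of the other FOXA genes passed a threshold by edgeR. Foxa2 (ENSMUSG00000037025, chr2:148042877-148046969, minus strand), a factor tied to fasting metabolism and bile acid handling, was at 46.6, 34.1, 28.9 and 34.4 CPM in healthy mice 1 to 4, 41.7, 58.1, 40.5 and 41.9 in STAM-vehicle and 26.9, 33.2, 32.1 and 44.05 in STAM-I-BET151 mice. The mean was highest in STAM-vehicle livers and the groups overlapped, with values of 0.34 ± 0.18 (adjusted p = 0.301) for vehicle minus healthy, -0.42 ± 0.18 (adjusted p = 0.542) for treated minus vehicle and -0.08 ± 0.18 (adjusted p = 0.792) for treated minus healthy (log2 fold change ± standard error, edgeR). Without STAM-vehicle mouse 2 the first of these was 0.20. Foxa1 (ENSMUSG00000035451, chr12:57540628-57546916, minus strand), which shares liver enhancers with Foxa2, varied least of the 9 in CPM, though not in TPM. It was at 20.4, 20.2, 18.4 and 21.8 CPM in healthy mice, 18.5, 19.4, 17.6 and 20.5 in STAM-vehicle and 22.9, 20.1, 20.7 and 16.4 in STAM-I-BET151 mice. In TPM it spanned 9.05 to 27.9 over the 12 mice, with STAM-I-BET151 mouse 3 the highest. Its log2 fold changes lay between -0.09 and 0.08 in the 3 comparisons. Per length, Foxa1 held 10.1 to 12.4% of the summed FOXA TPM in healthy and 11.2 to 18.9% in STAM-I-BET151 mice, and Foxa2 23.4 to 32.6% and 29.97 to 42.1%, overlapping in both cases.

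In CPM, Hnf4a (ENSMUSG00000017950, chr2:163506808-163572910, plus strand) was within the healthy range or near it in most STAM mice. Its CPM was 1021, 1036, 1202 and 951 in healthy mice 1 to 4, 1088, 1094, 823 and 1153 in STAM-vehicle mice and 763, 1049, 471 and 1185 in STAM-I-BET151 mice. STAM-I-BET151 mouse 3 was the lowest of the 12 at 471 CPM, while mouse 4 of the same group was among the highest. The place of mouse 3 depended on the scale. At 436.8 TPM it lay within the healthy range of 380.2 to 460.9 TPM, and STAM-I-BET151 mouse 1 was the lowest of the 12 at 370.3 TPM. STAM-vehicle mice 1 to 4 stood at 525.6, 531.3, 434.0 and 533.5 TPM. In TPM, STAM-vehicle mice 1, 2 and 4 and STAM-I-BET151 mouse 4 (528.0) therefore lay above every healthy mouse. The log2 fold change of STAM-vehicle against healthy livers was -0.02 ± 0.26 (adjusted p = 0.977), and its sign turned under 6 of the alternatives tried. Treated against vehicle livers gave -0.26 ± 0.26 (adjusted p = 0.841), which became -0.047 without mouse 3. Treated against healthy gave -0.28 ± 0.26 (adjusted p = 0.469), and -0.088 without it. Without STAM-I-BET151 mouse 4 these were -0.44 and -0.47. In bulk liver, fewer hepatocytes and less RNA of a gene per hepatocyte cannot be told apart, for this and for every other factor.

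In CPM, the C/EBP genes differed from healthy in opposite directions in their means, with no called change by edgeR. Cebpa (ENSMUSG00000034957, chr7:35119293-35121928, plus strand), which sustains gluconeogenic and urea cycle genes, was at 274, 269.7, 255 and 288 CPM in healthy mice 1 to 4, 212, 247, 185 and 219.8 in STAM-vehicle and 219, 307, 139.5 and 179.9 in STAM-I-BET151 mice. In CPM, STAM-vehicle mice all lay below healthy mice (20.5% less, log2 change -0.33 ± 0.21, adjusted p = 0.374, edgeR), whereas STAM-I-BET151 mice ranged from the lowest to the highest of all 12 and gave -0.03 ± 0.21 (adjusted p = 0.985) against vehicle. That value was -0.27 without STAM-I-BET151 mouse 2 and 0.13 without mouse 3. As TPM, STAM-vehicle (178.8 to 219.4) and healthy mice (157.7 to 226.6) overlapped. On that scale STAM-I-BET151 mouse 3 was the highest of the 12 at 237.1 and mouse 4 the lowest at 146.8. In STAM-I-BET151 livers the TPM mean lay above healthy for Cebpb (85.7 against 54.7) and also for Cebpa (203.7 against 197.8). For Cebpa, treated against healthy livers gave -0.36 ± 0.21 (adjusted p = 0.240, edgeR), with -0.22 without mouse 3. Without mouse 2 Cebpa passed the test, at -0.60 (adjusted p = 0.0322, edgeR). Cebpb (ENSMUSG00000056501, chr2:167688915-167690418, plus strand), the C/EBP protein of the acute-phase response and of liver regeneration, was at 37.3, 47.2, 61.7 and 29.5 CPM in healthy mice, 61.8, 45.4, 34.3 and 46.7 in STAM-vehicle and 40.4, 68.7, 33.8 and 60.6 in STAM-I-BET151 mice, with log2 change 0.21 ± 0.26, adjusted p = 0.605 for treated against healthy. That value ranged from 0.033 without STAM-I-BET151 mouse 2 to 0.42 without healthy mouse 3. The count of Cebpb over that of Cebpa in each mouse was 0.136, 0.175, 0.242 and 0.102 in healthy, 0.291, 0.184, 0.186 and 0.212 in STAM-vehicle and 0.185, 0.224, 0.242 and 0.337 in STAM-I-BET151 livers. The mean ratio was lowest in healthy livers (0.164 ± 0.0602) and highest in treated ones (0.247 ± 0.0648), and every pair of groups overlapped.

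In CPM, the means of Prox1 were lower and those of Onecut1 higher in both STAM groups than in healthy livers, with no call by edgeR. Prox1 (ENSMUSG00000010175, chr1:190118035-190170714, minus strand) was at 129, 213, 164 and 168 CPM in healthy mice 1 to 4, 124, 178, 147 and 168 in STAM-vehicle and 111, 133, 119 and 128 in STAM-I-BET151 mice. In CPM, treated mice were close to each other and overlapped the healthy group by healthy mouse 1 alone (log2 change -0.46 ± 0.17, adjusted p = 0.0771, edgeR). This depended on the scale. Treated mice 1 to 4 stood at 31.1, 32.1, 63.3 and 32.8 TPM, mouse 3 being the highest of the 12, and healthy mice at 31.9 to 48.7 TPM. The mean of Prox1 in TPM was lower in neither STAM group, at 38.2 in healthy, 43.4 in STAM-vehicle and 39.8 in STAM-I-BET151 livers. Over the alternatives of processing, the change against healthy ranged from -0.49 to -0.074. Against vehicle Prox1 gave -0.33 ± 0.17 (adjusted p = 0.617). Onecut1 (ENSMUSG00000043013, chr9:74861921-74891781, plus strand), the lowest of the factors, was at 3.23, 8.56, 1.57 and 3.45 CPM in healthy mice, 2.55, 15.7, 7.33 and 8.15 in STAM-vehicle and 15.2, 5.54, 5.06 and 10.7 in STAM-I-BET151 mice, resting on 54 to 323 reads per healthy mouse. Its fitted changes were the largest of the 9, at 1.00 ± 0.55 (adjusted p = 0.310) for vehicle and 1.12 ± 0.55 (adjusted p = 0.178) for treated against healthy, but mice within a group differed by more than the group means did. Leaving out single mice, the vehicle value ranged from 0.52 (without STAM-vehicle mouse 2) to 1.61 (without healthy mouse 2) and the treated value from 0.75 (without STAM-I-BET151 mouse 1) to 1.72 (without healthy mouse 2).

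Several factors share their locus with other transcripts. The library kit was a stranded one, while the strand setting of the counting is not stated, so reads of opposite-strand overlaps may not be separable. Tmem189, which overlaps Cebpb on the opposite strand with 312 shared exonic bases, rose in STAM-vehicle livers (log2 change 0.69 ± 0.14, adjusted p = 0.00919, edgeR) and in STAM-I-BET151 livers (log2 change 0.49 ± 0.14, adjusted p = 0.0299) against healthy, while Cebpb passed in neither comparison. The call in treated livers was lost without healthy mouse 2, 3 or 4 or STAM-I-BET151 mouse 2 or 4 (adjusted p up to 0.1004). Hnf4aos, an antisense transcript within the Hnf4a locus that shares no exonic base with it, was at 4.19, 6.07, 6.40 and 6.81 CPM in healthy mice 1 to 4, 10.9, 11.05, 6.19 and 8.47 in STAM-vehicle and 6.99, 13.04, 24.6 and 10.8 in STAM-I-BET151 mice. It rose in treated against healthy livers (log2 change 1.24 ± 0.32, adjusted p = 0.0218), with mouse 3 the highest of the 12, and by 0.79 without that mouse (adjusted p = 0.0382). This call was lost without healthy mouse 1, 2 or 3 (adjusted p up to 0.0568). Prox1os shares 133 exonic bases with Prox1 and Gm45091 shares 51 with Cebpa, and neither passed in any comparison. Sympk, which starts 839 bases from Foxa3, was at 90.5 to 103 CPM in healthy and 102 to 128 CPM in treated livers and did not pass.

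Genes tied to NR5A2 and PROX1 in the liver serve bile acid, cholesterol and glutamine metabolism. Of 10 genes on this list, 1 rose and 1 fell in STAM-vehicle against healthy livers, none passed in treated against vehicle, and 3 fell in treated against healthy. Among all tested genes 7.1%, 0.351% and 15.1% passed in these comparisons. Nr0b2, Cyp7a1, Cyp8b1 and Pck1 each stand on more than 1 list of this report and are counted again in each. The median log2 fold changes of the list were -0.30, -0.21 and -0.19, beside 0.01, 0.02 and 0.06 for all tested genes. Nr0b2, the corepressor SHP that feeds back on NR5A2 and HNF4A, was at 51.4, 33.8, 56.3 and 46.9 CPM in healthy mice 1 to 4, 21.7, 12.4, 21.05 and 25.1 in STAM-vehicle and 22.3, 6.48, 12.3 and 10.2 in STAM-I-BET151 mice. Both STAM groups lay below every healthy mouse (log2 change -1.23 ± 0.32, adjusted p = 0.0328 for vehicle and log2 change -1.87 ± 0.32, adjusted p = 0.00276 for treated, edgeR). The vehicle call was lost without healthy mouse 1, 3 or 4 or STAM-vehicle mouse 1, 2 or 3 (adjusted p up to 0.0929), and with library totals alone it was lost at -0.96 (adjusted p = 0.127).

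Of the bile acid enzymes, Cyp8b1, which directs synthesis towards cholic acid, fell in treated against healthy livers (log2 change -1.19 ± 0.35, adjusted p = 0.0338). It stood at 1065, 859, 1306 and 828 CPM in healthy, 564, 508, 277 and 608 in STAM-vehicle and 283, 694, 238 and 563 in STAM-I-BET151 mice, with no overlap between healthy and either STAM group. Cyp7a1, the rate-limiting enzyme of bile acid synthesis, went the other way and rose in STAM-vehicle livers (log2 change 0.91 ± 0.25, adjusted p = 0.0450), from 111 to 183 CPM to 168 to 381 CPM with overlapping mice. Gls2, a liver glutaminase, fell in treated against healthy livers (log2 change -1.19 ± 0.24, adjusted p = 0.00602), from 377 to 507 CPM to 129 to 286 CPM. The Cyp8b1 call was lost without healthy mouse 1, 2, 3 or 4 or STAM-I-BET151 mouse 1 (adjusted p up to 0.102), and that of Cyp7a1 without healthy mouse 2, 3 or 4, STAM-vehicle mouse 1, 2 or 4 or STAM-I-BET151 mouse 1 or 4 (adjusted p up to 0.148).

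**Figure D4:**
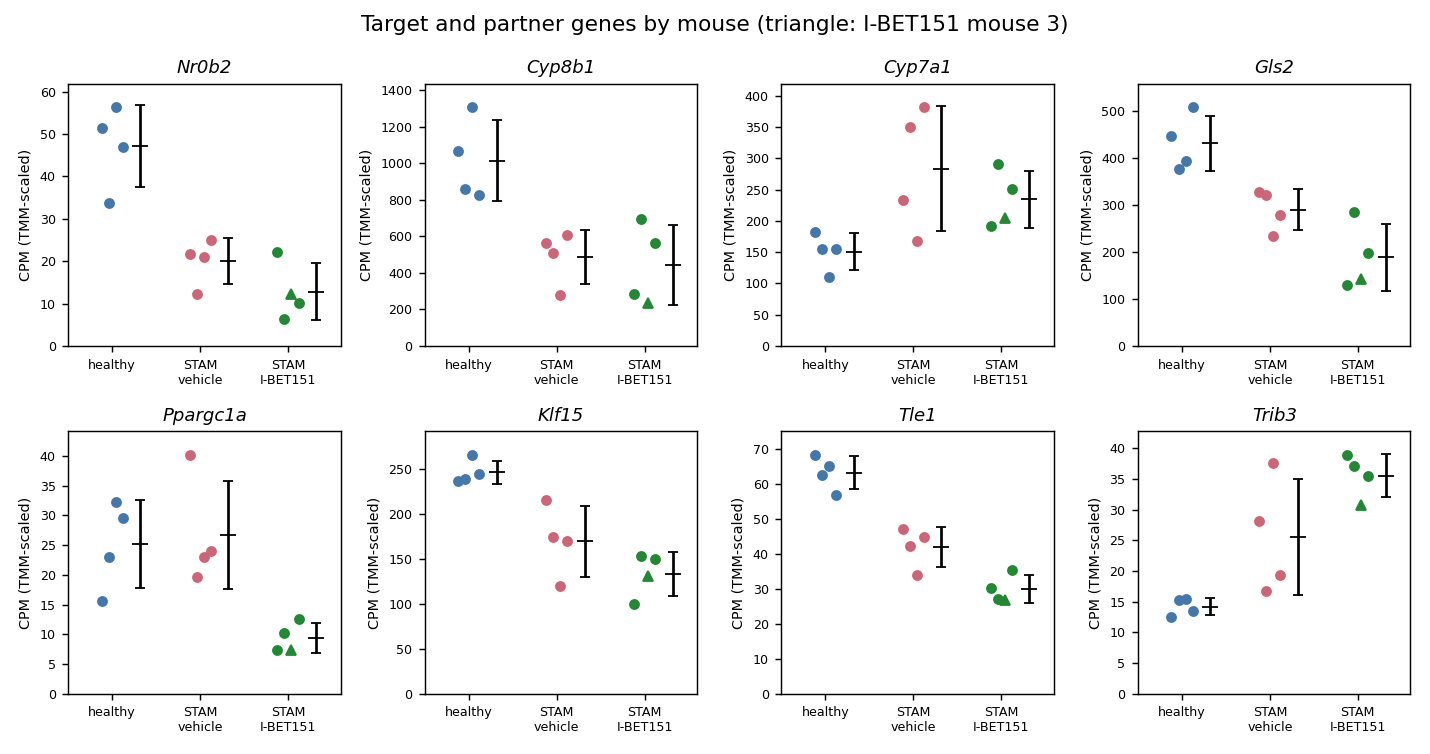
CPM (scaled by TMM) in every mouse of target genes (Nr0b2, Cyp8b1, Cyp7a1, Gls2) and of partner genes (Ppargc1a, Klf15, Tle1, Trib3), with the mean ± SD of 4 mice and STAM-I-BET151 mouse 3 as a triangle. Nr0b2 and Tle1 are lower in all 8 STAM mice than in any healthy mouse, and Ppargc1a is lower in all 4 STAM-I-BET151 mice than in any other mouse.

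HNF4A targets were lower in their means in 12 of 18 genes in vehicle and in 14 of 18 in treated against healthy livers, with few called. Of the 18, which include Hnf4aos, 1 rose in vehicle against healthy (Cyp7a1), none passed in treated against vehicle, and 1 rose (Hnf4aos) and 2 fell (Mttp and Cyp8b1) in treated against healthy. The shares of all tested genes that passed were 7.1%, 0.351% and 15.1%. Mttp, which loads lipid onto apolipoprotein B, was at 433, 526, 606 and 458 CPM in healthy mice and 282, 344, 152 and 316 in STAM-I-BET151 mice (log2 change -0.89 ± 0.23, adjusted p = 0.0205, edgeR), a call lost without healthy mouse 2 or 3 (adjusted p up to 0.0706). The median of the list was -0.21 in vehicle against healthy, -0.21 in treated against vehicle and -0.51 in treated against healthy. Of 8 FOXA targets, Afp, the fetal serum protein, rose from 1.43 to 1.84 CPM in healthy to 2.95 to 5.07 CPM in STAM-vehicle and 3.44 to 4.94 CPM in STAM-I-BET151 livers (log2 change 1.30 ± 0.20, adjusted p = 0.00235 for vehicle and log2 change 1.31 ± 0.20, adjusted p = 0.00149 for treated). Pck1, the gluconeogenic enzyme, fell in treated against healthy livers (log2 change -1.21 ± 0.29, adjusted p = 0.0142), and no other gene of that list passed. The FOXA list had medians of -0.62, -0.12 and -0.74 in the same order of comparisons.

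C/EBP targets include acute-phase and metabolic genes. Of 16, Lcn2 rose in vehicle against healthy livers, none passed in treated against vehicle, and 4 rose and 2 fell in treated against healthy. The shares of all tested genes that passed were 7.1%, 0.351% and 15.1%. The 4 that rose were acute-phase genes, Saa1, Saa2, Orm2 and Lcn2. Saa2 was at 3.53, 2.15, 5.29 and 5.03 CPM in healthy mice, 18.1, 56.3, 38.7 and 22.2 in STAM-vehicle and 131, 19.97, 4.03 and 1237 in STAM-I-BET151 mice. Treated mice 1 and 4 were highest, mouse 2 lay above the healthy mice and mouse 3 inside their range (log2 change 6.44 ± 1.38, adjusted p = 0.00883, edgeR), and without mouse 4 it was 3.69 (adjusted p = 0.0176). The Orm2 call was lost without healthy mouse 2 (adjusted p up to 0.0524), and that of Lcn2 in vehicle livers without healthy mouse 1, 2, 3 or 4 or STAM-vehicle mouse 2, 3 or 4 (adjusted p up to 0.131). The 2 that fell were metabolic, Pck1 and the liver glycogen synthase Gys2 (log2 change -0.82 ± 0.18, adjusted p = 0.00873). With library totals alone Gys2 was at -0.47 (adjusted p = 0.0558) and no longer called. Of 7 ONECUT1 targets, Cyp7a1 rose in vehicle and Pck1 fell in treated against healthy livers. The C/EBP list had medians of -0.24, 0.15 and -0.03, and the ONECUT1 list of -0.12, -0.26 and -0.23.

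Partners of the factors held a change between treated and vehicle livers. Of 15 cofactors and inhibitors of FOXA and C/EBP proteins, Ppargc1a, the coactivator that works with HNF4A on gluconeogenic genes, fell in treated against vehicle livers (log2 change -1.51 ± 0.27, adjusted p = 0.0485, edgeR). It was at 15.7, 23.05, 32.2 and 29.6 CPM in healthy mice, 40.1, 19.6, 23.1 and 23.96 in STAM-vehicle and 7.33, 10.3, 7.39 and 12.5 in STAM-I-BET151 mice, so every treated mouse lay below all 8 others. Without mouse 3 the fall was -1.40 (adjusted p = 0.0445), and the call was lost without STAM-vehicle mouse 4 or STAM-I-BET151 mouse 1 (adjusted p up to 0.165). Scaled to library totals alone it was lost as well (adjusted p = 0.139). Tle1, a Groucho corepressor recruited by FOXA proteins, fell in both STAM groups against healthy (log2 change -0.59 ± 0.13, adjusted p = 0.0165 for vehicle and log2 change -1.08 ± 0.13, adjusted p = 0.000362 for treated). Its relative Tle3 rose in treated livers (log2 change 0.75 ± 0.20, adjusted p = 0.0227), as did Trib3, a pseudokinase induced by stress (log2 change 0.85 ± 0.21, adjusted p = 0.0279 for vehicle and log2 change 1.32 ± 0.21, adjusted p = 0.00177 for treated). Ppargc1a and Nr0b2 were the other falls of this list in treated against healthy livers, and the list medians were 0.03, -0.21 and -0.19. Among all tested genes 7.1% passed in vehicle against healthy, 0.351% in treated against vehicle and 15.1% in treated against healthy. In vehicle livers the Tle1 call was lost with library totals alone, at -0.32 (adjusted p = 0.239), and without healthy mouse 3 or STAM-vehicle mouse 3 (adjusted p up to 0.0615), and the Trib3 call without healthy mouse 1, 2, 3 or 4 or STAM-vehicle mouse 1 or 3 (adjusted p up to 0.0863), and in treated livers the Tle3 call without healthy mouse 2, 3 or 4 or STAM-I-BET151 mouse 4 (adjusted p up to 0.0785).

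Further transcription factors of the hepatocyte were lower where they passed. Of 22 other hepatocyte factors, 2 fell in vehicle against healthy, Nr0b2 and Nfib (log2 change -0.52 ± 0.13, adjusted p = 0.0323), none passed in treated against vehicle, and 3 fell in treated against healthy, Nr0b2, Klf15 and Ppara. Among all tested genes 7.1%, 0.351% and 15.1% passed in these 3 comparisons. Means were lower in 18, 9 and 13 of the 22 in the same order, and higher in the rest. Klf15, a fasting-response factor, was at 237, 238, 265 and 244 CPM in healthy mice, 216, 174, 119.8 and 169 in STAM-vehicle and 100.1, 153, 131 and 150.04 in STAM-I-BET151 mice (log2 change -0.88 ± 0.19, adjusted p = 0.00823). Ppara, the receptor that drives fatty acid oxidation, was 128 to 194 CPM in healthy and 67.2 to 109.9 CPM in treated livers (log2 change -0.76 ± 0.17, adjusted p = 0.0115). No gene of the list rose, and the Nfib call was lost without healthy mouse 2, 3 or 4 or STAM-vehicle mouse 2, 3 or 4 (adjusted p up to 0.110). With library totals alone the calls were lost for Klf15, at -0.50 (adjusted p = 0.0854), for Ppara, at -0.33 (adjusted p = 0.295), and for Nfib, at -0.24 (adjusted p = 0.492). The median of these 22 was -0.20 in vehicle against healthy, 0.06 in treated against vehicle and -0.06 in treated against healthy.

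Markers of other liver cells were called in part, beside 7.1% of all tested genes in vehicle and 15.1% in treated against healthy livers. Of 9 Kupffer cell and macrophage markers, 4 rose in vehicle and 4 in treated against healthy, with summed levels of 236 to 338 CPM in healthy, 383 to 726 in STAM-vehicle and 304 to 666 in STAM-I-BET151 livers and no marker at 0. Of 8 stellate cell markers, 1 rose in vehicle and 4 in treated livers, and their sums overlapped between groups. Of 8 cholangiocyte markers, which matter here because bile duct cells also express Onecut1, 1 rose in vehicle and 2 in treated livers, with sums of 69.9 to 97.1 CPM in healthy, 98.5 to 109 in STAM-vehicle and 104 to 122 in STAM-I-BET151 livers. No lymphatic endothelial marker rose, and Reln fell in treated livers (log2 change -0.65 ± 0.18, adjusted p = 0.0289). The list sum without Prox1 overlapped in every comparison. The 19 hepatocyte genes with a symbol match of 20 listed gave 0 called in vehicle and 1 lower in treated against healthy (Hpd), but their sum lay at 149230 to 178898 CPM in healthy and 95801 to 117195 CPM in STAM-vehicle livers without overlap, and at 34626 to 168737 CPM in STAM-I-BET151 livers. Endothelial markers gave 0 called of 8 in vehicle and 1 rise in treated livers (Stab1), with overlapping sums. Of 7 T and B cell markers, Cd8a rose in vehicle against healthy and Cd4 fell in treated against vehicle livers, and of 4 neutrophil markers tested Csf3r rose in both STAM groups. Nuclear retained transcripts gave 0 of 6 called by edgeR, yet their sum was higher without overlap in STAM-vehicle (1829 to 2583 CPM) than in healthy livers (1145 to 1690 CPM). In STAM-I-BET151 livers it was 1442 to 2009 CPM in mice 1, 2 and 4 and 6168 CPM in mouse 3. Of the 10 pancreatic markers, 2 were tested and Cela2a rose in treated livers, while Prss1, Ins1 and Ins2 were at 0 in all mice. Calls of Adgre1, Cd4, Cela2a, Clec4f, Col1a1, Col1a2, Csf1r, Csf3r, Hpd, Krt7, Krt23, Marco, Pdgfrb, Reln and Stab1 were each lost without at least 1 single mouse, those of Krt23, Pdgfrb and Stab1 in treated livers also without STAM-I-BET151 mouse 3. With library totals alone the calls of Reln in treated livers, of Col1a1 and Csf3r in vehicle livers and of Cd4 were lost. The part of these cell types, and of the nuclear retained transcripts, in the values of the factors was not tested.

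Likeness across the 12 mice was described by Pearson's r of log2 CPM, with mice sharing group, library preparation and depth. Nr5a2 was most like Med14 (r = 0.980), Cnot6l (0.978) and Slc35a3 (0.978), and kept r of 0.957 or more with each without STAM-I-BET151 mouse 3. Foxa3 was most like Tatdn2 (0.960), H2-K1 (0.959) and Mrpl15 (0.956). Hnf4a was most like Acox2 (0.973), Cdo1 (0.964) and Rnf149 (0.961), which dropped to 0.896, 0.898 and 0.854 without mouse 3. The closest genes were Aqp11 (0.965) for Cebpa, Xpo4 (0.897) for Prox1, Tgm1 (0.903) for Onecut1, Fam72a (0.865) for Foxa1, Lyrm1 (0.863) for Cebpb and Phlda1 (0.858) for Foxa2. Among the factors themselves, the highest r was 0.780, between Cebpa and Nr5a2, and it was 0.577 without mouse 3. Foxa3 and Prox1 gave 0.737 with all mice and 0.748 without mouse 3.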

How the data were processed

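Per the labels and the study's methods, total RNA was taken from whole liver and libraries were made with a TruSeq stranded mRNA kit. The authors aligned reads with STAR version 2.5.1b to the mouse genome mm10 and counted reads per gene. The deposited files hold these raw counts, 1 file per mouse with 47729 Ensembl genes, and 47310 of the identifiers matched a symbol in GENCODE M21. The counting tool is named differently by the methods and the processing notes, and its strand setting is not given in the sources used here.

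Counts were tested with edgeR 4.0.16 (quasi-likelihood, filterByExpr with a minimum count of 10, TMM factors) in R 4.3.3, with all 12 mice in 1 fit and Benjamini-Hochberg adjustment over the 16823 genes tested. Thresholds on the adjusted p were 0.05 for vehicle against healthy and 0.1 for treated against vehicle, as in the study. For treated against healthy, a comparison the study did not report, 0.05 was taken here. CPM and TPM were computed here from the counts, TPM with GENCODE exonic lengths, and log2 CPM with a prior count of 2 was used for likeness. DESeq2 1.42.0 and limma 3.58.1 (voom with sample weights), other scalings and filters, a replicate block, a lane term, fits of 2 groups and fits without each mouse in turn served as alternatives. Scripts were tested on simulated counts with known changes. Depth was 34711229 to 53365596 counts per mouse.

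The factors and all gene lists were chosen with earlier results of these data known, and the lists of targets, cofactors and markers are textbook lists. Named genes were the 9 factors, up to 4 tested genes of each list with the smallest adjusted p in a comparison, the 3 genes most correlated with each factor, and genes overlapping a factor or starting within 2000 bases of it. Further marker genes were named after their values were seen. The labels do not say whether mice shared litters or cages, so p-values measure the spread between these mice. No 2 count files were duplicates. Per the study's methods the vehicle was methylcellulose while I-BET151 was suspended in another carrier, so compound and carrier cannot be told apart.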

Additional observations from a re-analysis of the deposited data

Results flagged for a closer look

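Among 27 sets of 4 mice, each being a factor in a group, 1 held a mouse far from the others. Foxa2 in STAM-vehicle mouse 2 was at 58.1 CPM, with the other 3 mice at 41.7, 40.5 and 41.9 CPM. The gap to the nearest mouse was 0.922 of the range of the group, above Dixon's critical value at the 95% level for 4 values. Chance marks about 1 in 20 groups in this way. Without this mouse the log2 fold change of Foxa2 in STAM-vehicle against healthy livers was 0.20, from 0.34 with it, and that of treated against vehicle -0.28, from -0.42. Neither comparison passed its threshold with or without it (edgeR).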

How the results depend on the processing

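Of 594 values of the factors under an alternative, 536 kept direction and side of the threshold, 10 lost a call, 12 gained one and 36 changed sign, none of the last being called. The count of factors called in STAM-vehicle against healthy livers was 0, 1 with DESeq2 without STAM-I-BET151 mouse 3, 2 with limma-voom (Foxa2 and Nr5a2), 2 in the fit of those groups alone (Cebpa and Nr5a2) and 0 to 1 over the fits without each mouse. In treated against vehicle it was 0, 1 with limma-voom and 0 to 0 without each mouse. In treated against healthy it was 2, 0 with library totals alone, 0 with lane as a term, 1 in the fit of those groups alone (Foxa3), 3 with an adjusted p of 0.1, with DESeq2 and with limma-voom, and 0 to 3 without each mouse. It was 3 without healthy mouse 1 (Prox1 added) and without STAM-I-BET151 mouse 2 (Cebpa added), 1 without healthy mouse 3 (Nr5a2) and 0 without healthy mouse 2 or 4. The cause was not tested, beyond the few degrees of freedom left by the lane term.

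Replicate numbers left no mark of pairing in the values. Deviations of same-numbered mice had a mean correlation of -0.0927 over 12 pairs, none over 0.1, beside 0.0305 over 36 other pairs. Whether same-numbered mice shared a litter, cage or processing day cannot be read from these correlations. Adding replicate number as a block, the counts stayed 0, 0 and 2 (Nr5a2 -0.67, Foxa3 -0.79), while calls over the whole table fell from 1195 to 742, 59 to 10 and 2546 to 1573. The same 3 counts were 1910, 268 and 3427 with DESeq2, 4369, 1287 and 4092 with DESeq2 without STAM-I-BET151 mouse 3, 5672, 1205 and 4880 with limma-voom, 3879, 8 and 1262 in fits of 2 groups, 37, 0 and 85 with lane, and 546 to 3779, 13 to 403 and 1292 to 3731 without each mouse. At an adjusted p of 0.1 they were 2052 and 4162 against healthy, and at 0.05 there were 26 for treated against vehicle, where totals alone gave 6 and no filter on low counts 101.

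Library totals alone moved the median gene by 0.27, 0.11 and 0.40 (log2) in the 3 comparisons. In vehicle against healthy this turned Hnf4a to 0.26, Foxa1 to 0.18, Foxa3 to 0.036 and Prox1 to 0.15, in treated against vehicle Cebpa to 0.015, and in treated against healthy Hnf4a to 0.013, Foxa1 to 0.38 and Foxa2 to 0.27. Lane turned Hnf4a to 0.48, Foxa3 to 0.040 and Prox1 to 0.19 in vehicle against healthy, Cebpb to -0.027 in treated against vehicle and Hnf4a to 0.064 in treated against healthy. At least 10 counts in every mouse turned Hnf4a in vehicle (0.013) and Foxa1 in treated (0.028) against healthy. Limma-voom turned Hnf4a in vehicle (0.070) and Foxa2 in treated (0.028) against healthy, and Foxa1 in treated against vehicle (-0.0097). The fit of those groups alone turned Foxa1 in treated against healthy (0.0041), and DESeq2 without mouse 3 turned Cebpa in treated against vehicle (0.14). Leaving out each mouse, values that changed sign ranged over -0.082 to 0.078 for Hnf4a, -0.061 to 0.30 for Cebpb and -0.23 to 0.0017 for Prox1 in vehicle against healthy, over -0.27 to 0.13 for Cebpa, -0.067 to 0.27 for Cebpb and -0.25 to 0.60 for Onecut1 in treated against vehicle, and over -0.086 to 0.064 for Foxa1 and -0.23 to 0.075 for Foxa2 in treated against healthy.

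Of 55 results on other named genes, 21 lost their call with the block, 50 with lane, 11 with totals alone and 0 with DESeq2, and none changed sign. Bulk RNA of 4 mice a group limits what can be seen of the lowly expressed Onecut1, whose standard error was 0.55.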
